A study of Homo sapiens with 8 samples.

Results

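The genes described here are the integrated stress response and amino acid genes, which comprise the transcription factor ATF4 and 41 genes known as its targets or partners. They were chosen by gene symbol, with earlier results of these data known. All 42 were found among the 23228 genes listed in every library. All 42 also passed the filter on low counts and were among the 13694 genes tested. By role, 9 members are transcription factors and regulators, 8 are stress effectors, 10 are enzymes of amino acid synthesis, 7 are amino acid transporters and 8 are tRNA synthetases. BT-549 is an established triple negative breast cancer (TNBC) cell line, and its RNA was sequenced after 24 h in 4 groups, which received vehicle (DMSO), 100 nM EC359, 10 µM vorinostat, or the 2 drugs together at the same doses. EC359 inhibits the leukemia inhibitory factor receptor (LIFR), and vorinostat inhibits histone deacetylases (HDACs). Each group held 2 libraries, 8 in all, and every group was the same unmodified cell line. The labels do not say whether the libraries of a group came from separate cultures, so p-values measure only the spread between these libraries, which may be technical.

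The integrated stress response starts when kinases that sense amino acid shortage, unfolded protein, double-stranded RNA or heme deficiency phosphorylate the translation initiation factor eIF2. Most protein synthesis then slows, while the ATF4 mRNA is translated more efficiently, so the level of that mRNA is only part of the control of ATF4. ATF4 pairs with C/EBP family proteins at composite response elements in the promoters of genes that make, import and charge amino acids, and of genes that restrain growth or feed back on the response. Tumour cells are known to rely on many of these genes when nutrients or protein folding are limiting.

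The response element has a known core of 8 bases, TGATGNAA, which was searched on both strands of the promoter windows given by RefSeq (GRCh38.p14), each running from 250 bases before to 50 bases after a transcript start. Windows were found for 36 of the 42 members, 54 windows in all, and 14 of these windows (25.9%), each of a different member, held the core. Among all 35116 windows the share was 3.62%, and by gene the shares were 38.9% of the members with a window and 4.46% of 27305 genes. The members were chosen as known targets or partners of ATF4, so their share is not independent of that choice. The cyclic AMP response element TGACGTCA, which does not overlap the core, was found in 1 member window (1.85%), that of PPP1R15A, and in 1.85% of all windows. The cores are shown for 6 members in which the whole stretch printed lies before the transcript start. Capitals mark the core, or its reverse complement TTNCATCA, with 26 bases on either side, each read 5′ to 3′ along the gene.
ASNS, chr7:97872443-97872502, minus strand, core 68 bases before the start: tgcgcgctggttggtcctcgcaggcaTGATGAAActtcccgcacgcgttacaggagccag
ATF3, chr1:212565190-212565249, plus strand, core 191 bases before the start: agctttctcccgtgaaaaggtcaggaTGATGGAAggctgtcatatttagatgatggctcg
CEBPG, chr19:33374045-33374104, plus strand, core 42 bases before the start: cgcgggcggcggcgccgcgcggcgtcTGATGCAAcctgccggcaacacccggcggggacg
CHAC1, chr15:40953236-40953295, plus strand, core 209 bases before the start: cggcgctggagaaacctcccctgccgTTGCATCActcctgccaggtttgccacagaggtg
HERPUD1, chr16:56931940-56931999, plus strand, core 176 bases before the start: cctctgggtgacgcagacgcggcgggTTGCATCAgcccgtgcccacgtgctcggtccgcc
AARS, chr16:70289660-70289719, minus strand, core 187 bases before the start: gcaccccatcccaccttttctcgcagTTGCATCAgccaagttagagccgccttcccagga

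The other members with the core were GARS, IARS, JDP2, MARS, NARS, SLC1A4, SLC3A2 and SLC7A1. At an adjusted p under 0.01, 7 of the 14 members with the core rose and 5 fell under the combination compared to vehicle, against 11 and 6 of the 22 members whose windows lacked it and 29.7% and 26.7% of all genes. With EC359 added to vorinostat, 5 of the 14 and 10 of the 22 rose, and the 2 that fell were among the 22 (8.45% and 5.26% of all genes). Under EC359 alone 2 of the 14 and 7 of the 22 rose (3.81% of all genes), and under vorinostat 5 rose and 6 fell of the 14, against 7 and 7 of the 22 (26.2% and 25.9%). A match is a description of the letters in the window and not of binding, and no test was made of these counts.

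Sequencing depth was similar in all libraries, with 19069450 to 24759041 counts on genes, and the members took 0.85% to 1.17% of them. The lowest member count in a library was 20 (JDP2) and the highest 29048 (SLC38A2). Levels are given as CPM, that is counts scaled to the library size after TMM normalization, for the libraries numbered 1 and 2 in that order. Per kilobase of transcript, DDIT4 was the most abundant member under vehicle at 276 CPM per kb, and CTH the least abundant at 1.27. The 2 EC359 libraries differed from each other most, and the SD across the members of their log2 difference was 0.423, compared to 0.167 for vehicle, 0.0937 for vorinostat and 0.212 for the combination. The 6 markers of mesenchymal TNBC cells were found in every library at unlike levels. VIM had 2060 to 9440 CPM and SPARC 902 to 3460 CPM, whereas ZEB1 had 43.2 to 208 and CDH2 22.7 to 39.5. The sum of these 6 markers was 7410 to 8350 CPM in the other libraries and 12500 and 12700 in the combination. There VIM (log2 2.15, adjusted p = 5.2e-08), CD44 (0.71, adjusted p = 0.00064) and CDH2 (0.53, adjusted p = 0.0078) were higher than under vehicle. AXL and SPARC were lower (-1.82, adjusted p = 2.6e-07, and -1.93, adjusted p = 7.1e-08), and ZEB1 did not pass (-0.16, adjusted p = 0.38). Single drugs moved these markers as well, at an adjusted p under 0.01. Under vorinostat VIM was higher (1.22), and ZEB1, CD44, AXL and SPARC were lower (-0.90, -0.71, -1.49 and -0.85). Under EC359 VIM, ZEB1 and CD44 were higher (0.66, 1.07 and 0.64) and SPARC was lower (-0.86). ESR1 and PGR did not exceed 1.02 and 0.051 CPM, and the 4 leukocyte markers summed to 0.254 to 2.15 CPM. The 7 hormone receptor and luminal markers summed to 82 to 105 CPM without vorinostat and to 15.6 to 38.1 CPM with it. This followed ERBB2 (-2.70 under vorinostat, adjusted p = 2.2e-07), whereas EPCAM rose at levels of at most 4.27 CPM (4.22, adjusted p = 0.0045) and KRT8 and KRT18 had positive values that did not pass (2.41, adjusted p = 0.019, and 2.37, adjusted p = 0.03). Their part in the results below was not tested. In bulk RNA, fewer cells of a type and less RNA per cell cannot be told apart.

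Each gene was tested by the quasi-likelihood method of edgeR with the Benjamini-Hochberg adjustment over all genes tested. A member is said to have risen or fallen at an adjusted p under 0.01, and is counted as called when its absolute log2 fold change also exceeded 1. Under EC359 alone, 9 of the 42 members rose and none fell, against 3.81% of all genes tested that rose and 4.01% that fell. Of these 6 were called higher, with a background of 1.94% called higher and 1.72% called lower. At an unadjusted p under 0.05 edgeR had 24 members higher and 5 lower, and DESeq2 at an adjusted p under 0.01 had 14 higher and 0 lower. No share of all genes is given for these counts, so they are not read as an excess. The members' median log2 fold change was 0.31, and that of all genes was -0.02. The members that rose were ATF3, CEBPB, GDF15, SESN2, PPP1R15A, VLDLR, ASNS, SLC7A5 and SARS. Of these, PPP1R15A, ASNS, SLC7A5 and SARS did not pass in every fit that left out a library.

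Under vorinostat alone, 13 members rose and 17 fell, compared to 26.2% and 25.9% of all genes. Called were 9 higher and 7 lower, with backgrounds of 16.8% and 13.3%. The median was -0.23 for the members and 0.03 for all genes. Under the combination compared to vehicle, 19 members rose and 16 fell (29.7% and 26.7% of all genes), and 13 were called higher and 8 lower (19.5% and 15.3%). Here the medians were 0.24 and 0.07.

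When EC359 was added to vorinostat, that is in the combination compared to vorinostat, 16 members rose and 2 fell, against 8.45% and 5.26% of all genes. Most of these members did not pass in every fit that left out a library. Called were 8 higher and 1 lower, against 3.37% and 0.876%. The members' median log2 fold change was 0.34, and that of all genes -0.01. Over all genes this comparison called 462 higher and 120 lower (79.4% higher), whereas normalization by total counts gave 380 and 182 (67.6% higher), with the number of members called at 8 and 1 under both. The 8 called higher were DDIT3, ATF3, TRIB3, SESN2, GDF15, PPP1R15A, HERPUD1 and STC2, all of them regulators or effectors. No synthesis, transport or synthetase gene exceeded the fold threshold. Below it, 1 of 10 synthesis genes, 3 of 7 transporters and 1 of 8 synthetases rose, and 1 synthesis gene fell. The rises were 0.86 for ASNS (SE 0.11) and SLC7A11 (SE 0.10), 0.57 for SLC7A5 (SE 0.08), 0.45 for SLC38A2 and 0.37 for AARS. None of these rises passed in every fit that left out a library. When vorinostat was added to EC359, 14 members rose and 18 fell (29.5% and 26.3% of all genes), with 8 called higher and 9 lower (19.8% and 13.9%) and a median of -0.25, compared to 0.06 for all genes.

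**Figure D1:**
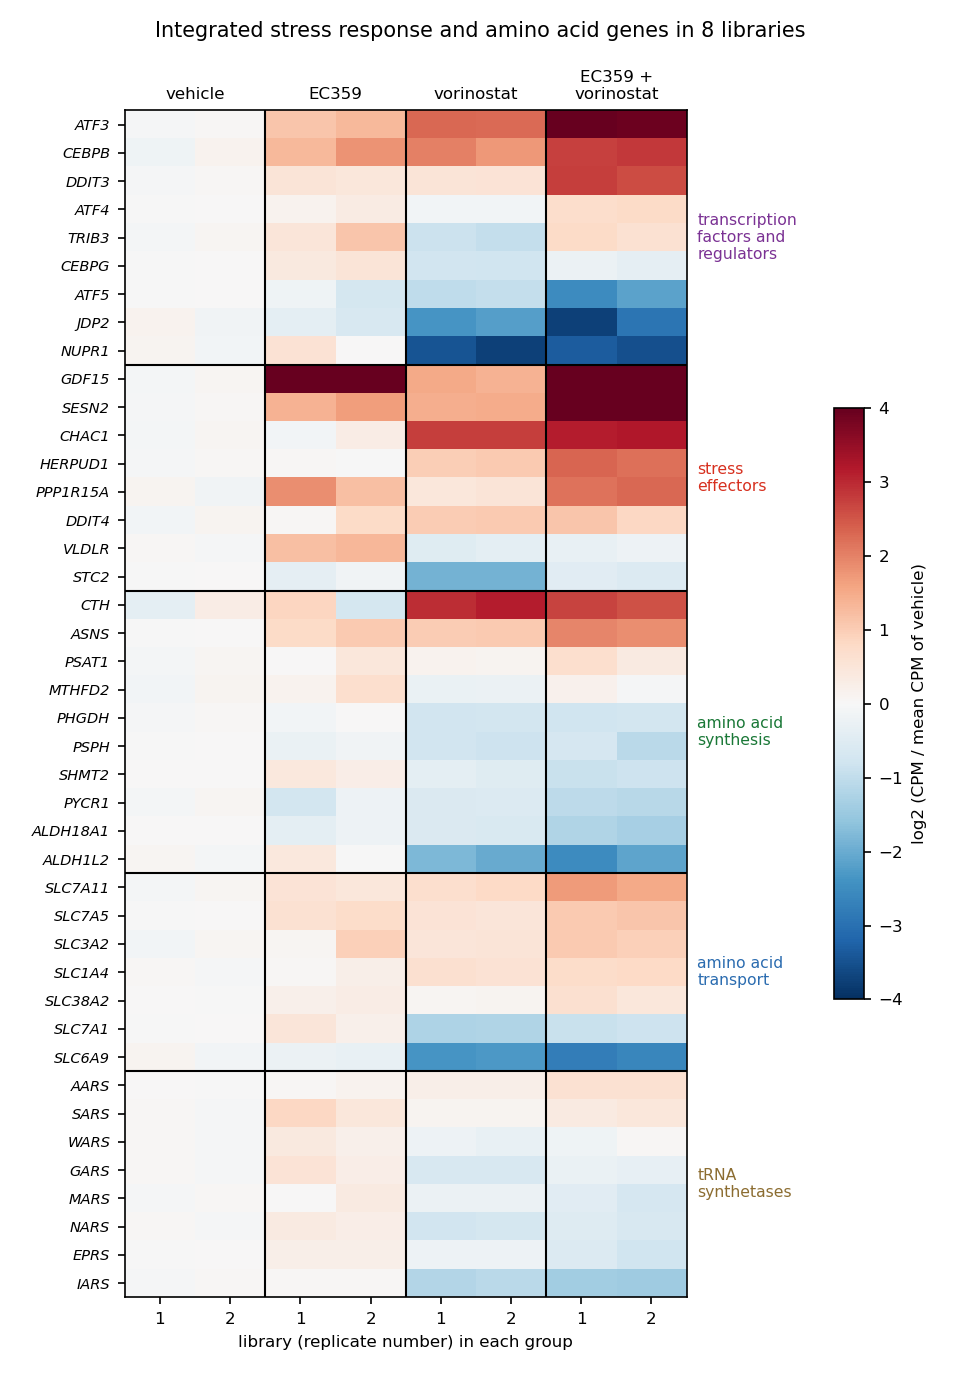
Heat map of the 42 members (rows, grouped by role and ordered by their fold change under the combination) in the 8 libraries (columns), coloured by the log2 ratio of normalized CPM to the mean of the vehicle libraries. The colour scale ends at -4 and 4. GDF15 exceeds it in both groups with EC359, SESN2 in both combination libraries and ATF3 in combination library 1. Under the combination the strongest increases are in the upper 2 blocks, while under vorinostat alone CTH has the largest, and synthesis, transport and synthetase genes show increases and decreases side by side.

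The 9 transcription factors and regulators moved in both directions. Under EC359 2 rose, under vorinostat 3 rose and 5 fell, and with EC359 added to vorinostat 6 rose and 1 fell. Of all genes, 3.81% rose under EC359, 26.2% rose and 25.9% fell under vorinostat, and 8.45% and 5.26% with EC359 added to it. ATF4, the factor that gives the response its name, measured 236 and 241 CPM under vehicle, 261 and 296 under EC359, 223 and 222 under vorinostat, and 384 and 404 under the combination. Its 2 combination libraries were above all others. With EC359 added to vorinostat ATF4 rose by 0.82 on the log2 scale (SE 0.09, adjusted p = 0.00031), whereas neither drug alone moved it past the threshold (0.22 under EC359, adjusted p = 0.13, and -0.10 under vorinostat, adjusted p = 0.35). The rise did not pass without vorinostat library 1 or 2, at adjusted p up to 0.013.

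DDIT3, which encodes the pro-apoptotic factor CHOP, measured 24 and 25.6 CPM under vehicle, 35.4 and 33.8 under EC359, 35.3 and 36.5 under vorinostat, and 167 and 150 under the combination. The single-drug groups lay close together, slightly above vehicle, and both combination libraries far above them. DDIT3 rose 1.45-fold under vorinostat (log2 0.53, SE 0.10, adjusted p = 0.0014) and 6.39-fold under the combination (log2 2.68, SE 0.10, adjusted p = 1e-07), while EC359 alone gave 0.48 (SE 0.10, adjusted p = 0.013). DDIT3 (chromosome 12, 57910371 to 57915520, minus strand, GRCh37) shares exonic sequence with MARS, another member, and with MBD6, both on the other strand, and no source used here gives the strand setting of HTSeq. MARS itself fell in the combination (-0.55, SE 0.13, adjusted p = 0.0035), at 190 and 165 CPM compared to 252 and 269 under vehicle, but not without vehicle library 1 or 2 or combination library 2 (adjusted p up to 0.029). The small rise of DDIT3 under vorinostat did not pass without either vehicle or either vorinostat library (0.48 to 0.57, adjusted p up to 0.022).

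ATF3, a factor of the ATF/CREB family that many stresses induce, measured 15.2 and 16.3 CPM under vehicle, 34.1 and 38.9 under EC359, 77.6 and 75.6 under vorinostat, and 284 and 242 under the combination. No groups overlapped, and the order from vehicle to EC359, vorinostat and the combination was the same in every library. ATF3 rose by 1.21 under EC359 (SE 0.12, adjusted p = 2e-04), by 2.28 under vorinostat (SE 0.12, adjusted p = 7.7e-07) and by 4.06 under both (SE 0.13, adjusted p = 4.4e-08) on the log2 scale. CEBPB, a C/EBP factor that dimerizes with ATF4, measured 102 and 129 CPM under vehicle, 286 and 404 under EC359, 469 and 383 under vorinostat, and 764 and 823 under the combination. EC359 and vorinostat overlapped, and both lay between vehicle and the combination. CEBPB rose by 1.58 under EC359 (SE 0.18, adjusted p = 0.00047), by 1.88 under vorinostat (SE 0.18, adjusted p = 2.2e-05) and by 2.78 under both (SE 0.19, adjusted p = 1.9e-06) on the log2 scale. With EC359 added to vorinostat CEBPB rose by 0.90 (SE 0.18). That rise did not pass without either vorinostat or either combination library (0.72 to 1.01).

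TRIB3, a pseudokinase that binds ATF4 and limits its activity, moved in opposite directions. Its level was 52.2 and 58.5 CPM under vehicle, 76.8 and 119 under EC359, 30.4 and 28.7 under vorinostat, and 93.4 and 84.1 under the combination. Vorinostat libraries were the lowest, and the combination fell within the spread of the EC359 libraries. TRIB3 fell under vorinostat (-0.91, SE 0.19, adjusted p = 0.0022, and up to 0.022 without vehicle library 2 or vorinostat library 1 or 2) and rose when EC359 was added to vorinostat (1.59, SE 0.19, adjusted p = 0.00051). The latter did not pass without vorinostat library 1 (1.59, adjusted p = 0.011), vorinostat library 2 (1.51, adjusted p = 0.013) or combination library 1 (1.47, adjusted p = 0.012). CEBPG, another partner of ATF4, fell under vorinostat (-0.79, SE 0.09, adjusted p = 8e-05) and rose with EC359 added to it (0.49, SE 0.09, adjusted p = 0.0056), though the latter missed the threshold without any 1 vehicle, vorinostat or combination library (adjusted p up to 0.094).

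TRIB3 and CEBPG were 2 of the 5 regulators that fell under vorinostat, and NUPR1, JDP2 and ATF5 were the other 3. NUPR1, a small stress-induced chromatin protein, measured 34.7 and 30.1 CPM under vehicle, 48.8 and 32.7 under EC359, 2.93 and 2.46 under vorinostat, and 3.22 and 2.86 under the combination. All 4 libraries with vorinostat were far below all 4 without it. The decrease was 12-fold under vorinostat (log2 -3.59, SE 0.23, adjusted p = 2.1e-06), the largest of any member in either direction in that comparison, and EC359 made no difference past the threshold with vorinostat (0.18, SE 0.26, adjusted p = 0.65). JDP2, an AP-1 family repressor, fell 4.82-fold under vorinostat (log2 -2.27, SE 0.24, adjusted p = 3.7e-05) from 15 and 12.3 CPM to 2.67 and 2.97. ATF5, whose mRNA is under translational control like that of ATF4, fell under vorinostat (-0.99, SE 0.19, adjusted p = 0.0013, and up to 0.015 without vorinostat library 1 or 2) and again when EC359 was added (-1.32, SE 0.20, adjusted p = 0.0018), to 5.78 and 7.45 CPM from 32.8 and 33 under vehicle. It was the only member called lower in that comparison, and no member was called lower there without vorinostat library 1, vorinostat library 2 or combination library 1 or 2, with adjusted p of 0.011 to 0.024 for ATF5. ATF5 shares exonic sequence with NUP62 and IL4I1 on the other strand.

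Of the 8 stress effectors, 4 rose under EC359 (3.81% of all genes), and 5 rose and 2 fell under vorinostat (26.2% and 25.9%). When EC359 was added to vorinostat, 5 of them rose (8.45%). Their medians in these comparisons were 0.86, 1.02 and 1.32, the highest of the 5 role groups in each. GDF15, a secreted stress cytokine of the TGF-beta superfamily, measured 8.26 and 9.29 CPM under vehicle, 142 and 162 under EC359, 25.3 and 23.2 under vorinostat, and 219 and 254 under the combination. Its groups did not overlap. GDF15 rose 17.3-fold under EC359 (log2 4.11, SE 0.14, adjusted p = 1.2e-06), 2.77-fold under vorinostat (log2 1.47, SE 0.13, adjusted p = 1.3e-05) and 26.9-fold under the combination (log2 4.75, SE 0.14, adjusted p = 3.1e-08).

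SESN2 encodes a leucine-binding inhibitor of mTORC1. It measured 24.1 and 25.7 CPM under vehicle, 65 and 79.1 under EC359, 68.2 and 70 under vorinostat, and 421 and 405 under the combination. The single drugs overlapped at a level between vehicle and the combination. SESN2 rose 2.89-fold under EC359 (log2 1.53, SE 0.11, adjusted p = 3.9e-05), 2.77-fold under vorinostat (log2 1.47, SE 0.11, adjusted p = 5.5e-06) and 16.6-fold under both (log2 4.05, SE 0.12, adjusted p = 3.7e-08). DDIT4, the other mTORC1 inhibitor of the group, rose under vorinostat (1.03, SE 0.20, adjusted p = 0.0017) from 447 and 517 CPM to 971 and 996, and was not raised further with EC359 (-0.06, SE 0.20, adjusted p = 0.86). Its change under vorinostat did not pass without vehicle library 1 (0.92, adjusted p = 0.02), vorinostat library 1 (1.04, adjusted p = 0.01) or vorinostat library 2 (1.00, adjusted p = 0.012).

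PPP1R15A, also known as GADD34, directs a phosphatase to eIF2 and so reverses the first step of the response. It measured 101 and 84.8 CPM under vehicle, 341 and 216 under EC359, 128 and 133 under vorinostat, and 416 and 453 under the combination. Both groups with EC359 lay above both groups without it. The log2 fold change was 1.58 under EC359 (SE 0.19, adjusted p = 0.00067; 1.46 and 0.014 without vehicle library 2) and 1.74 with EC359 added to vorinostat (SE 0.19, adjusted p = 0.00034), compared to 0.49 under vorinostat alone (SE 0.19, adjusted p = 0.046). CHAC1, an enzyme that degrades glutathione, showed the other pattern. It measured 15.9 and 17.6 CPM under vehicle, 15.7 and 20.5 under EC359, 114 in both vorinostat libraries, and 149 and 156 under the combination. Libraries with vorinostat did not overlap those without it, whereas EC359 alone overlapped vehicle. CHAC1 rose 6.83-fold under vorinostat (log2 2.77, SE 0.14, adjusted p = 5.3e-07), and the further difference with EC359 did not pass (0.41, SE 0.12, adjusted p = 0.035).

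HERPUD1 takes part in the degradation of misfolded proteins at the endoplasmic reticulum (ER). It measured 88.3 and 95 CPM under vehicle, 94.2 and 91.3 under EC359, 181 and 188 under vorinostat, and 456 and 421 under the combination. EC359 alone lay within the vehicle range, while the combination exceeded vorinostat in both libraries. HERPUD1 rose 2.01-fold under vorinostat (log2 1.01, SE 0.09, adjusted p = 1.2e-05) and another 2.38-fold with EC359 added (log2 1.25, SE 0.09, adjusted p = 2.6e-05), and EC359 alone gave 0.02 (SE 0.09, adjusted p = 0.92). STC2, a secreted glycoprotein, measured 773 and 803 CPM under vehicle, 613 and 721 under EC359, 213 and 213 under vorinostat, and 581 and 541 under the combination. The vorinostat libraries stood apart below the other groups. STC2 fell 3.70-fold under vorinostat (log2 -1.89, SE 0.10, adjusted p = 7.1e-07) and rose 2.63-fold when EC359 was added (log2 1.40, SE 0.10, adjusted p = 2.3e-05), which left the combination below vehicle (-0.49, SE 0.10, adjusted p = 0.0014, and up to 0.014 without vehicle library 2 or combination library 2). VLDLR, a lipoprotein receptor, measured 42.8 and 40.9 CPM under vehicle, 96.8 and 104 under EC359, 30.1 and 31.8 under vorinostat, and 33.9 and 36.3 under the combination. Only the 2 EC359 libraries were high. VLDLR rose 2.40-fold under EC359 (log2 1.27, SE 0.10, adjusted p = 5.3e-05), and with vorinostat present EC359 gave 0.18 (SE 0.10, adjusted p = 0.21).

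**Figure D2:**
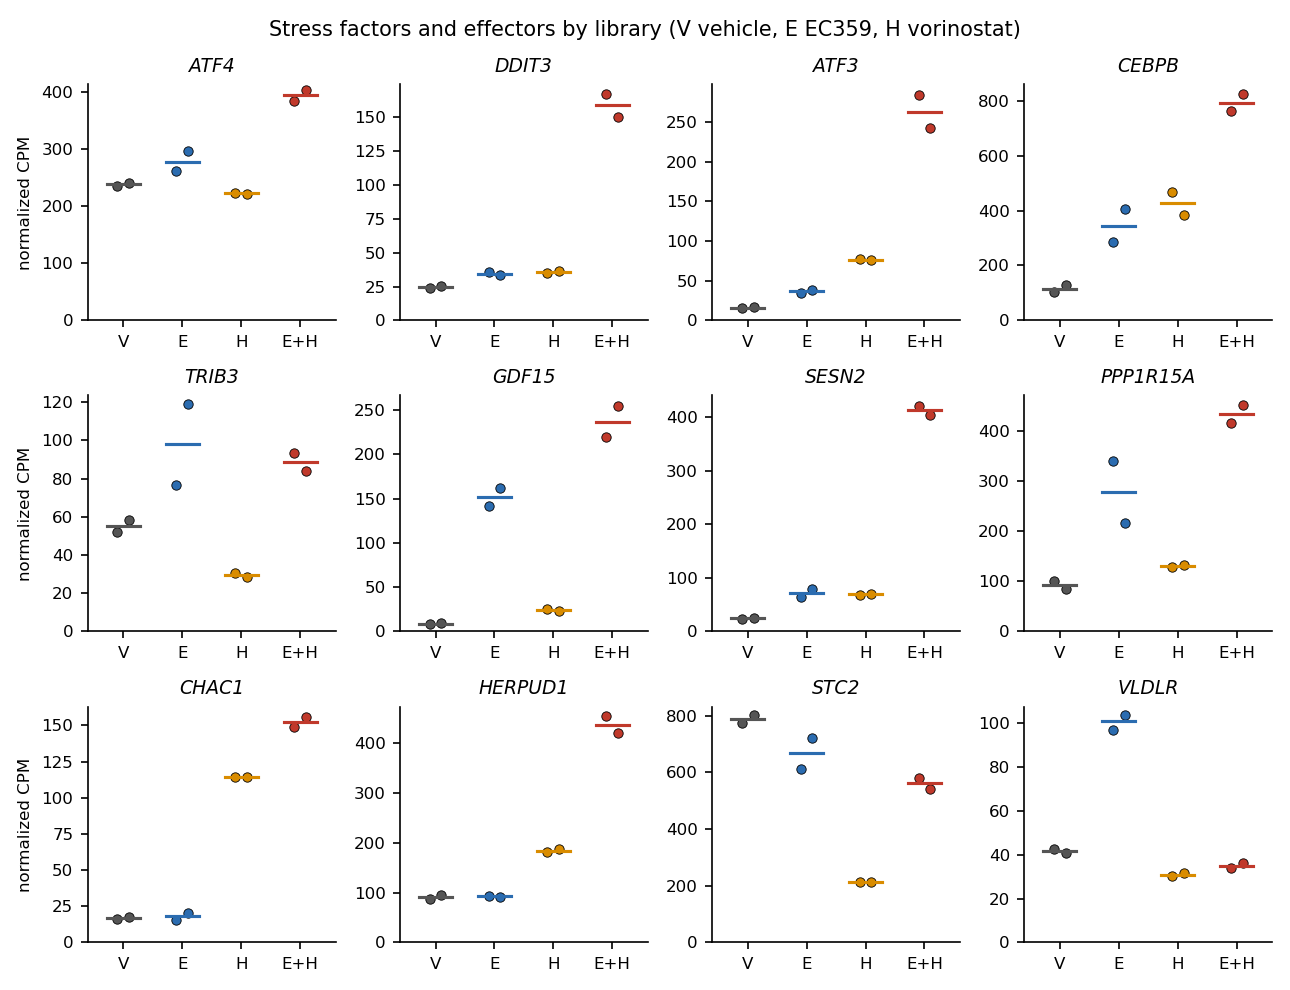
Normalized CPM (linear axes from 0) of 12 regulators and effectors in each library (points) with the mean of each group (lines), for vehicle (V), EC359 (E), vorinostat (H) and both (E+H). DDIT3, SESN2 and HERPUD1 are highest by far in the combination, GDF15 and PPP1R15A are high in both groups with EC359, CHAC1 in both with vorinostat, STC2 is low under vorinostat alone, and VLDLR is high under EC359 alone.

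To ask whether the effect of EC359 differed with and without vorinostat, the interaction of the drugs was tested. It passed in 5 of the 42 members, 4 of them above what the 2 drugs added up to alone and 1 below it, compared to 1.62% and 0.482% of all genes. Over all genes 222 lay above and 66 below (77.1% above), and DESeq2 gave 446 and 267 (62.6% above). For DDIT3 the single-drug log2 changes summed to 1.01, or 2.02-fold, and the combination reached 2.68, so that the interaction was 1.66 (SE 0.14, adjusted p = 0.00031). STC2 had a sum of -2.13 and a combination value of -0.49, an interaction of 1.64 (SE 0.14, adjusted p = 3e-04). In HERPUD1 the sum was 1.02 and the combination 2.26, an interaction of 1.23 (SE 0.12, adjusted p = 0.00083). SESN2 had a sum of 3, or 8.01-fold, and a combination of 4.05, an interaction of 1.05 (SE 0.15, adjusted p = 0.0054). VLDLR was the member below the sum, with a sum of 0.83 and a combination value of -0.25, an interaction of -1.08 (SE 0.14, adjusted p = 0.0031).

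DDIT3 and STC2 passed in each of the 8 fits that left out a library. HERPUD1 did not pass without vehicle library 2 (1.17, adjusted p = 0.011), vorinostat library 1 (1.15, adjusted p = 0.021), vorinostat library 2 (1.20, adjusted p = 0.016) or combination library 1 (1.12, adjusted p = 0.015). Of these fits, SESN2 and VLDLR passed only in the 2 without an EC359 library, where more of all genes passed too. Without any single vehicle, vorinostat or combination library, SESN2 had interactions of 0.97 to 1.09 with adjusted p of 0.033 to 0.072, and VLDLR of -1.20 to -1.05 with adjusted p of 0.017 to 0.031. The median interaction of the members was -0.07, and that of all genes 0.02. ATF4 (0.60, SE 0.13, adjusted p = 0.025) and GDF15 (-0.83, SE 0.17, adjusted p = 0.025) did not pass, nor did any synthesis, transport or synthetase gene in edgeR. Among those roles SHMT2 came nearest, at -0.75 (SE 0.13, adjusted p = 0.011). At an unadjusted p under 0.05 they had 2 genes above and 6 below the sum, and in DESeq2 0 and 2. Over all genes DESeq2 gave 446 and 267 of 12632, and the share at an unadjusted p is not given.

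**Figure D3:**
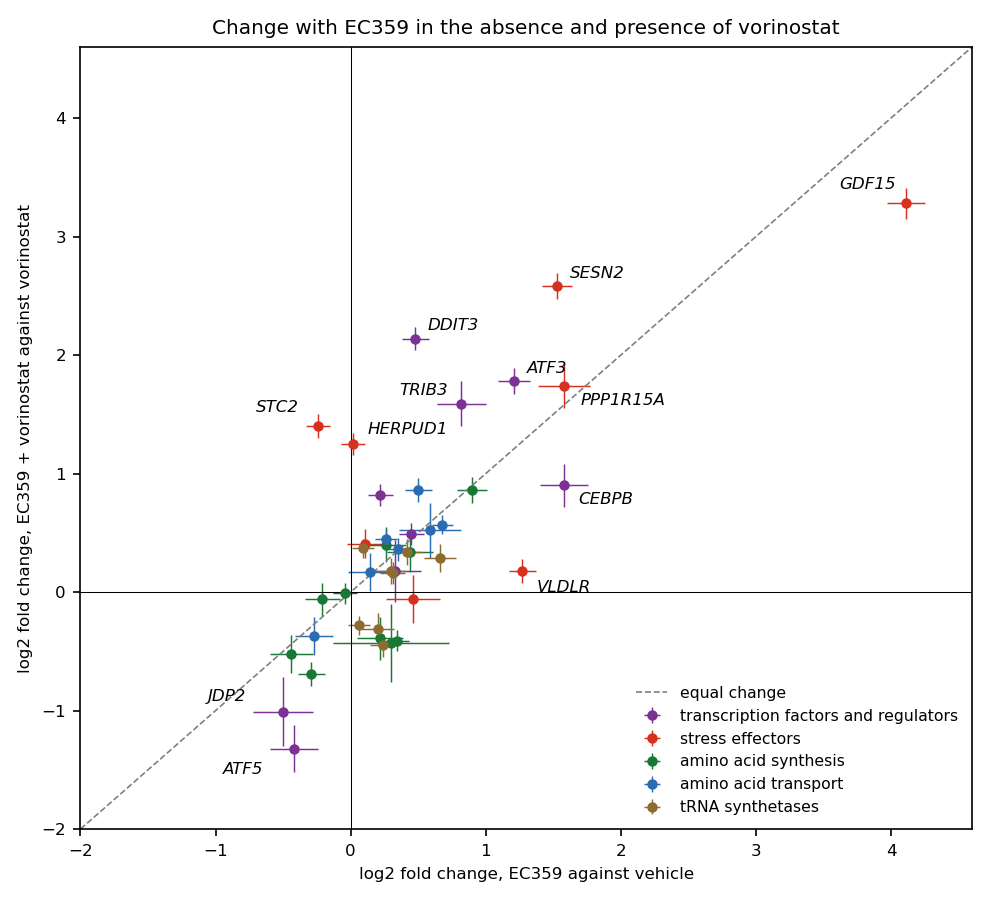
Log2 fold change of each member with EC359 in the absence of vorinostat (EC359 against vehicle, horizontal axis) and in its presence (combination against vorinostat, vertical axis), with standard errors as bars, coloured by role. The dashed line marks equal change, and no library enters both axes. DDIT3, STC2, HERPUD1 and SESN2 lie above the line and VLDLR below it. All synthesis, transport and synthetase genes lie between -0.69 and 0.90 on both axes. The transporters have medians of 0.35 (horizontal) and 0.45 (vertical).

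Of the 10 enzymes of amino acid synthesis, 2 rose and 5 fell under vorinostat (median -0.51), compared to 26.2% and 25.9% of all genes. Under the combination compared to vehicle 2 rose and 6 fell (median -0.81), compared to 29.7% and 26.7%. ASNS, which makes asparagine, measured 79.1 and 82.2 CPM under vehicle, 136 and 165 under EC359, 163 and 168 under vorinostat, and 311 and 290 under the combination. Vehicle was lowest and the combination highest, and the single-drug groups overlapped. It rose by 0.90 under EC359 (SE 0.11, adjusted p = 0.00062), by 1.04 under vorinostat (SE 0.11, adjusted p = 3.5e-05) and by 1.90 under both (SE 0.11, adjusted p = 8.1e-07), close to the sum of 1.94 (interaction -0.04, SE 0.15, adjusted p = 0.91). The rise under EC359 missed the threshold without vehicle library 1 or 2, at adjusted p up to 0.013. CTH, the enzyme that releases cysteine from cystathionine, was scarce without vorinostat, at 2.03 and 3.27 CPM under vehicle and 4.78 and 1.62 under EC359, and measured 20.7 and 23.5 under vorinostat and 17.4 and 15.5 under the combination. It rose 8.33-fold under vorinostat (log2 3.06, SE 0.39, adjusted p = 0.00012). Its lowest count over the 8 libraries was 32, in EC359 library 2.

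Enzymes of serine and proline synthesis and of mitochondrial folate metabolism were lower with vorinostat or did not pass. PHGDH, the first enzyme of serine synthesis, fell under vorinostat (-0.75, SE 0.09, adjusted p = 6.4e-05) from 208 and 218 CPM to 126 and 127. PSPH, the last enzyme of that route, fell as well (-0.79, SE 0.14, adjusted p = 0.00073, and 0.011 without vorinostat library 2), while PSAT1, between them, gave 0.12 (SE 0.15, adjusted p = 0.49). None of the 3 passed under EC359 alone. ALDH1L2, a mitochondrial folate dehydrogenase, measured 109 and 96.7 CPM under vehicle, 137 and 102 under EC359, 29.7 and 25.7 under vorinostat, and 18.2 and 23.9 under the combination, a decrease of 3.71-fold under vorinostat (log2 -1.89, SE 0.18, adjusted p = 1.7e-05). SHMT2 and MTHFD2, the other 2 folate enzymes, gave -0.45 (SE 0.09, adjusted p = 0.0018) and -0.26 (SE 0.17, adjusted p = 0.20) under vorinostat, and SHMT2 did not pass without either vehicle or either vorinostat library (adjusted p up to 0.026).

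ALDH18A1, the first enzyme of proline synthesis from glutamate, was the synthesis gene that fell when EC359 was added to vorinostat (-0.69, SE 0.10, adjusted p = 0.0012). It measured 192 and 193 CPM under vehicle, 148 and 168 under EC359, 130 and 127 under vorinostat, and 82.9 and 76.2 under the combination, with no overlap of any group and the combination lowest. Without either vorinostat or either combination library this change missed the threshold, at adjusted p up to 0.019. PYCR1, the last enzyme of proline synthesis, gave -0.57 under vorinostat (SE 0.16, adjusted p = 0.011) and fell under the combination compared to vehicle (-1.08, SE 0.16, adjusted p = 0.00026).

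Of the 7 transporters, 3 rose and 2 fell under vorinostat (26.2% and 25.9% of all genes). Under the combination compared to vehicle, 5 rose and 2 fell (29.7% and 26.7%). SLC7A11, the light chain of the cystine and glutamate exchanger, measured 67.8 and 74.4 CPM under vehicle, 103 and 98.2 under EC359, 114 and 123 under vorinostat, and 230 and 202 under the combination. Its groups did not overlap, and each drug group was above vehicle. SLC7A11 rose by 0.74 under vorinostat (SE 0.10, adjusted p = 0.00022) and by 1.6 under both drugs (SE 0.11, adjusted p = 1.6e-06), and under EC359 alone gave 0.50 (SE 0.10, adjusted p = 0.011). SLC7A5, the light chain of a transporter of large neutral amino acids, measured 356 and 365 CPM under vehicle, 553 and 605 under EC359, 521 and 508 under vorinostat, and 743 and 780 under the combination. It rose with each drug (0.68 under EC359, SE 0.08, adjusted p = 0.00061, and 0.51 under vorinostat, SE 0.08, adjusted p = 0.00047) and by 1.08 under both (SE 0.08, adjusted p = 3.8e-06), and its EC359 effect did not pass without vehicle library 1 or 2 (adjusted p up to 0.014). SLC3A2, the heavy chain that both light chains need, rose under the combination compared to vehicle (1.01, SE 0.23, adjusted p = 0.0035), but its EC359 libraries were 242 and 446 CPM, a wider gap than in any other group. Without either vehicle or either combination library that change did not pass, at adjusted p up to 0.038.

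SLC7A1 and SLC6A9 went the other way with vorinostat. SLC7A1, which imports arginine and lysine, measured 528 and 532 CPM under vehicle, 740 and 616 under EC359, 226 and 229 under vorinostat, and 284 and 298 under the combination. SLC6A9, a glycine transporter, measured 27.7 and 24.1 CPM under vehicle, 22.1 and 21 under EC359, 5.09 and 5.31 under vorinostat, and 3.79 and 4.29 under the combination. For both genes every library with vorinostat was below every library without it. They fell under vorinostat 2.33-fold (log2 -1.22, SE 0.10, adjusted p = 7.6e-06) and 4.97-fold (log2 -2.31, SE 0.15, adjusted p = 2.1e-06), respectively. SLC38A2, a carrier of small neutral amino acids and the most abundant transporter by CPM, rose when EC359 was added to vorinostat (0.45, SE 0.08, adjusted p = 0.005), and SLC1A4 rose under vorinostat (0.60, SE 0.16, adjusted p = 0.0093) at a low level of 5.65 to 10.2 CPM. Each of these changes failed to pass without any 1 of the vehicle, vorinostat or combination libraries, at adjusted p up to 0.091 for SLC38A2 and 0.071 for SLC1A4.

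The 8 cytosolic tRNA synthetases, which charge tRNAs with amino acids, had the narrowest range of the 5 role groups when EC359 was added to vorinostat, -0.45 to 0.37 on the log2 scale. SARS, for serine, measured 312 and 290 CPM under vehicle, 538 and 413 under EC359, 328 and 324 under vorinostat, and 389 and 409 under the combination. It was the synthetase that rose under EC359 (0.66, SE 0.12, adjusted p = 0.0064), but that change did not pass without any 1 of the vehicle, vorinostat or combination libraries, at adjusted p up to 0.078. AARS, for alanine, measured 498 and 481 CPM under vehicle, 506 and 536 under EC359, 579 and 574 under vorinostat, and 741 and 749 under the combination. Both combination libraries were above all others, and AARS rose by 0.61 compared to vehicle (SE 0.08, adjusted p = 9.3e-05) and by 0.37 compared to vorinostat (SE 0.08, adjusted p = 0.0073). The latter missed the threshold when any 1 of the vehicle, vorinostat or combination libraries was left out, at adjusted p up to 0.11.

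The synthetases that fell under vorinostat were IARS, NARS and GARS. IARS, for isoleucine, measured 417 and 440 CPM under vehicle, 445 and 446 under EC359, 192 and 203 under vorinostat, and 165 and 160 under the combination. NARS, for asparagine, measured 332 and 312 CPM under vehicle, 412 and 385 under EC359, 188 and 197 under vorinostat, and 227 and 205 under the combination. In both genes the libraries with vorinostat lay below those without it, and the decreases were 2.17-fold for IARS (log2 -1.12, SE 0.08, adjusted p = 4.1e-06) and 1.67-fold for NARS (log2 -0.74, SE 0.09, adjusted p = 9.8e-05). GARS gave -0.63 (SE 0.11, adjusted p = 0.00069). EPRS fell under the combination compared to vehicle (-0.66, SE 0.10, adjusted p = 3e-04) and WARS did not pass in any comparison with vehicle.

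Related genes outside the members were compared by their counts and medians. Their test values are from the fit of all 8 libraries, and fits that left out a library are not given for them. Of 16 other genes reported as ATF4 targets, 14 were tested, and FGF21 and BCAT1 were left out by the filter at no more than 1 and 13 counts in a library. Of the 14, 5 rose under EC359 (median 0.47), compared to 3.81% of all genes. Under vorinostat 4 rose and 5 fell (median -0.09), and 4 rose and 1 fell when EC359 was added to vorinostat (median 0.12). MAP1LC3B, an autophagy protein, changed most in the last of these, from 509 and 474 CPM under vorinostat to 1420 and 1330 under the combination (1.48, SE 0.09, adjusted p = 1e-05). Of 15 ER chaperones and unfolded protein response (UPR) genes, 5 rose and 3 fell under vorinostat, and 3 rose and 2 fell when EC359 was added (median 0.01). For both lists the share of all genes under vorinostat was 26.2% that rose and 25.9% that fell, and with EC359 added to it 8.45% and 5.26%. HSPA5, the main chaperone of the ER lumen, measured 1680 and 1700 CPM under vehicle, 1240 and 1350 under EC359, 5690 and 5730 under vorinostat, and 12700 and 11500 under the combination. It fell under EC359 (-0.38, SE 0.08, adjusted p = 0.0099), rose 3.38-fold under vorinostat (log2 1.76, SE 0.08, adjusted p = 3.4e-07) and another 2.12-fold with EC359 (log2 1.08, SE 0.08, adjusted p = 2.6e-05), with an interaction of 1.46 (SE 0.11, adjusted p = 0.00017).

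Upstream of ATF4, 13 genes for the eIF2 kinases, eIF2, its exchange factor and the phosphatase subunit PPP1R15B were tested. None passed under EC359 in edgeR, where 3.81% of all genes rose and 4.01% fell. At an unadjusted p under 0.05 there were 2, and in DESeq2 1, with no share of all genes given for these counts. When EC359 was added to vorinostat, 2 rose (8.45% of all genes). These were EIF2AK3, the kinase PERK that senses ER stress (0.64, SE 0.13, adjusted p = 0.008), and PPP1R15B (0.88, SE 0.10, adjusted p = 0.00049), which measured 94.8 and 81.2 CPM under vehicle, 87.9 and 96 under EC359, 212 and 213 under vorinostat, and 407 and 373 under the combination. The kinase genes differed under vorinostat, with EIF2AK2 at -1.57 (SE 0.22, adjusted p = 0.00021), EIF2AK4 at -1.28 (SE 0.11, adjusted p = 1.4e-05) and EIF2AK1 at 0.66 (SE 0.11, adjusted p = 0.00067). RNA levels do not measure the phosphorylation of eIF2 or the translation of ATF4. Of the other 15 cytosolic synthetase genes and cofactors, 1 rose (TARS, 0.52, SE 0.10, adjusted p = 0.0045) when EC359 was added to vorinostat, and of 17 mitochondrial synthetases 3 fell. The shares of all genes there were 8.45% that rose and 5.26% that fell.

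**Figure D4:**
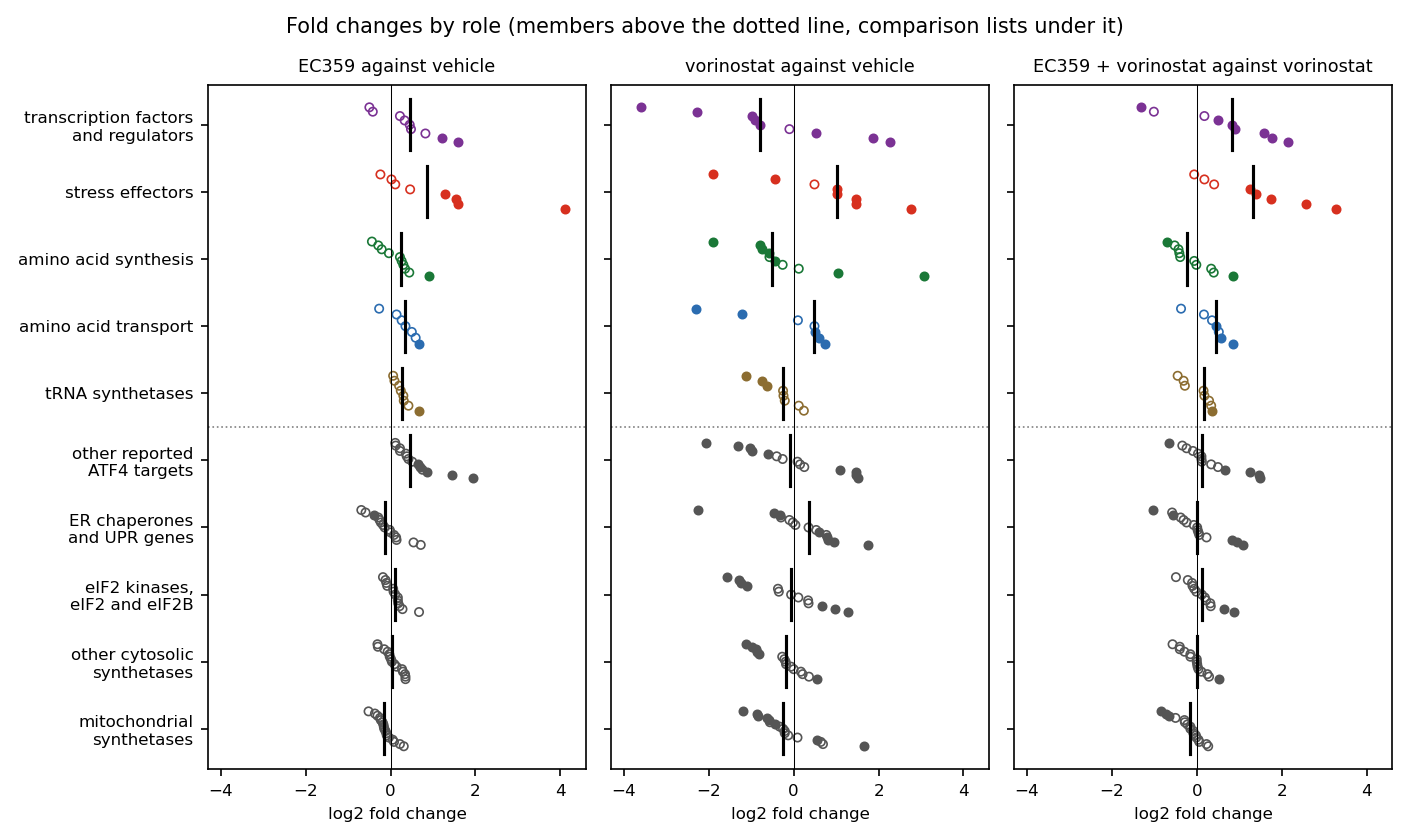
Log2 fold changes of the members by role (above the dotted line) and of 5 lists of related genes (grey, under it) in EC359 against vehicle, vorinostat against vehicle and EC359 plus vorinostat against vorinostat. Filled points passed an adjusted p of 0.01 and black bars are medians; the stress effectors have the highest median of the 5 role groups in each panel (0.86, 1.02 and 1.32).

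Some member counts may hold reads of other genes or lack reads of their own. HTSeq set aside 0.649% to 0.85% of unique alignments in a library as ambiguous. By GENCODE on GRCh37, 9 members share exonic sequence with a counted gene on the other strand: DDIT3, ATF5, SHMT2, MTHFD2, ALDH1L2, SLC6A9, AARS, WARS and MARS. PYCR1 shares some with MYADML2 on its own strand. Named pseudogene copies exist for 10 members, among them ATF4, ASNS, PSAT1 and MTHFD2, and for SLC7A5 the copies SLC7A5P1 and SLC7A5P2 are themselves counted, so reads could be split between them.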

How the data were processed

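RNA of BT-549 cells was sequenced in 8 libraries, 2 per treatment. Per the labels and the study's methods, the authors aligned 50 bp single-end reads to hg19 with TopHat2 2.0.8b, assigned them to NCBI RefSeq genes with HTSeq and deposited raw read counts by gene symbol. The HTSeq version and strand setting are not given in the sources used here. The summary lines of HTSeq were left out, and 85.1% to 88.1% of unique alignments in a library fell on genes (19069450 to 24759041 counts).

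Genes were kept by filterByExpr of edgeR 4.0.16 (R 4.3.3) and scaled by TMM (factors 0.955 to 1.03). All 8 libraries were fitted in 1 quasi-likelihood model with a mean per group, and 5 comparisons and the interaction were tested, with Benjamini-Hochberg adjustment over 13694 genes. The SE is the absolute log2 fold change over the square root of F. The procedure was tested on simulated data. Full values were given to members with an interaction and, per role, to the 2 largest changes at an adjusted p under 0.01 under EC359, under vorinostat and with EC359 added to it. ATF4, TRIB3 and the eIF2 kinase genes were added after their values were seen. A related list was represented by its largest change at an adjusted p under 0.01 with EC359 added to vorinostat, except for the mitochondrial synthetases, where it is not reported here. The members and lists were chosen with earlier results of these data known.

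Alternatives were DESeq2 1.42.0, RLE or total-count normalization, other filters and thresholds, the replicate number as a block, GC and length offsets, and leaving out each library. A group left with 1 library is assumed to vary like the others. A crossed block was chosen after seeing the data. Gene positions are from GENCODE on GRCh37, and 21326 of 23228 symbols were matched (91.8%). Promoter windows are from RefSeq on GRCh38.p14. Figures were drawn with Python 3.11.15.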

Additional observations from a re-analysis of the deposited data

Results flagged for a closer look

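In 5 members the effect of EC359 differed with and without vorinostat by the interaction test of edgeR (quasi-likelihood, Benjamini-Hochberg adjusted p under 0.01). The difference was 1.66 on the log2 scale for DDIT3 (adjusted p = 0.00031), which EC359 moved by 0.48 alone and by 2.14 with vorinostat. It was 1.64 for STC2 (adjusted p = 3e-04), with effects of -0.24 and 1.40. HERPUD1 had a difference of 1.23 (adjusted p = 0.00083), from 0.02 alone to 1.25 with vorinostat. For SESN2 it was 1.05 (adjusted p = 0.0054), from 1.53 to 2.58. VLDLR had a difference of -1.08 (adjusted p = 0.0031), from 1.27 alone to 0.18 with vorinostat. In each case both combination libraries lay above both vorinostat libraries, also for VLDLR (33.9 and 36.3 CPM against 30.1 and 31.8). That describes the combination against vorinostat only, and not the interaction. DDIT3 and STC2 passed in all 8 fits that left out a library, HERPUD1 did not pass in 4 of them, and SESN2 and VLDLR did not in 6. What sets these members apart from the other 37 was not tested.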

How the results depend on the processing

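No result reversed under any alternative run. Over single members and comparisons, 3700 of 4032 values kept their direction and side of the threshold, 163 no longer passed and 169 newly passed. With no fold threshold, members lower under vorinostat numbered 17 instead of 7 (14 at a 1.5-fold threshold), lower under the combination compared to vehicle 16 instead of 8 (13), higher with EC359 added to vorinostat 16 instead of 8, higher with vorinostat added to EC359 14 instead of 8, and lower there 18 instead of 9 (18). Members lower with EC359 added to vorinostat numbered 2 instead of 1 without a fold threshold, at the 1.5-fold threshold and at an adjusted p under 0.05. Interactions below the sum numbered 1, but 4 in DESeq2, 2 with RLE, 2 with total counts, 4 without a filter on low counts and 4 at an adjusted p under 0.05. SESN2 did not pass with total counts. The causes were not tested, apart from the thresholds, which act by construction.

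Leaving out a library in turn gave 0 lower and 5 to 8 members called higher under EC359, 7 to 9 higher and 7 to 8 lower under vorinostat, 11 to 13 higher and 8 to 9 lower under the combination compared to vehicle, 7 to 8 higher and 0 to 2 lower with EC359 added to vorinostat, and 7 to 9 higher and 9 to 12 lower with vorinostat added to EC359. Interactions ranged from 2 to 7 above and 0 to 8 below the sum. The lowest counts came without a vehicle, vorinostat or combination library. Over all genes too, fewer interactions passed in those fits than with all 8 libraries. Without EC359 library 1 or 2 more passed, among the members and over all genes alike.

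Across genes, libraries with the same number deviated from their groups' means with correlations of -0.173 to 0.231, so the numbers were not taken as pairs. A replicate block left every count of members called as it was, with 6 higher and 0 lower under EC359, 9 higher and 7 lower under vorinostat, and 4 interactions above and 1 below the sum. A block that swaps numbers 1 and 2 within the combination, chosen after seeing the data, gave 4 interactions above and 3 below. Depth limits the values of CTH and JDP2 most, with as few as 32 and 20 counts in a library.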
